A study of Mus musculus with 12 samples.

Results

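Oxidative phosphorylation transcripts were examined complex by complex in podocytes of diabetic mice with and without a knockout of Nsd2, a histone methyltransferase. The 109 genes were chosen by symbol alone, with no measured value used, out of 23829 genes listed at 20 weeks and 23777 at 28 weeks. Leaving out symbols with -ps, the choice took every symbol starting with Nduf, Uqcr or Atp5 and the cytochrome c oxidase symbols from Cox4 to Cox8. It also took Sdha, Sdhb, Sdhc, Sdhd and Cyc1, and the 13 protein genes of mitochondrial DNA. Of these, 40 were complex I subunits, 8 were complex I assembly factors with Ndufaf symbols, 4 belonged to complex II, 9 to complex III, 18 to complex IV and 17 to complex V, which makes 96 nuclear genes beside the 13 mitochondrial ones. Ndufa4 and Ndufa4l2 carry complex I names, but NDUFA4 is known as a subunit of complex IV, and both were counted there. Ndufs6b and Ndufb4c stayed among the complex I subunits, although the GENCODE M21 annotation types them as processed pseudogenes.

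The libraries came from primary podocytes of mice made diabetic by high-fat diet and streptozotocin (HFD/STZ). Control mice were Cre-/Nsd2fl/fl and knockout mice Cre+/Nsd2fl/fl, so all groups shared the floxed alleles and the diabetic treatment and differed in Cre. The series text calls the knockout podocyte-specific, while the Cre driver is not given in those sources. Mice were 20 or 28 weeks old, which gave 4 groups of 3 libraries and 12 in all, with 1 batch number throughout. The comparison asks which transcripts depend on Nsd2 at an earlier and a later stage of diabetic kidney disease. Nothing in the labels ties the 3 libraries of a group to different animals, and p-values therefore reflect library-to-library spread, which may be technical only.

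Oxidative phosphorylation is the chain of inner-membrane enzymes that turns fuel into ATP. Complex I (NADH dehydrogenase) and complex II (succinate dehydrogenase) pass electrons to ubiquinone, complex III hands them to cytochrome c, complex IV (cytochrome c oxidase) gives them to oxygen, and complex V (ATP synthase) uses the resulting proton gradient. All of these except complex II combine nuclear subunits with subunits encoded in mitochondrial DNA, so both genomes must supply them. Podocytes, which wrap the glomerular capillaries with foot processes, hold mitochondria mainly in the cell body and are known to use glycolysis as well, and mitochondrial injury is a known feature of diabetic kidney disease.

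Library totals ran from 31405349 to 38989180 counts. Nsd2, the targeted gene, was lower in all knockouts than in all controls, at 34.1 to 51.7 against 66.6 to 94.2 counts per 1e+06 counts (CPM) at 20 weeks and 35.2 to 42.9 against 77.6 to 87.2 CPM at 28 weeks. All 12 podocyte markers were listed at both ages, with summed levels of 772.6 to 2633 CPM per library. The 8 smooth muscle markers summed to 3333 to 15790 CPM, above the podocyte sum in every library. Transcripts listed as markers of other cell types were thus present, and which cells expressed them was not tested. In bulk samples fewer cells of a type and less RNA per cell cannot be told apart. The parietal and simple epithelial markers were highest in knockout library 1 among the knockouts of each age, at 2171 CPM against 329 and 393 CPM at 20 weeks and at 7047 CPM against 191 and 710 CPM at 28 weeks. Control libraries 2 and 3 at 28 weeks were closely alike, and the number of calls is also given with both summed into 1.

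Within the controls the levels of the complexes were compared as FPKM, which divides by gene length. At 20 weeks the median level was 82.0 FPKM over complex I subunits, 116 FPKM over complex II, 142 FPKM over complex III, 199 FPKM over complex IV and 214 FPKM over complex V, and 10.7 FPKM over the complex I assembly factors. Atp5b, the catalytic beta subunit of ATP synthase, had the highest nuclear level at 809.9 FPKM, followed by Cox4i1, the broad isoform of cytochrome c oxidase subunit 4, at 775 FPKM. COX1, the catalytic subunit of complex IV encoded in mitochondria, stood above all nuclear members at 4773 FPKM. At the other end, 10 nuclear members had mean levels under 5 FPKM, and 5 of them were tissue-restricted isoforms of complex IV. The same order of complex medians was found in the 28-week controls. The place of complex IV depended on its restricted isoforms. Over its 12 other members the control median was 417 FPKM at 20 weeks and 380 FPKM at 28 weeks. Both were above the medians of complex V, at 214 and 199 FPKM.

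At 20 weeks few oxidative phosphorylation genes differed between genotypes. Of 107 members with enough reads to be tested, Ndufa4l2 rose, Cox5a fell and 105 did not pass an adjusted p of 0.05 (edgeR quasi-likelihood test with Benjamini-Hochberg adjustment over 14853 genes). That is 1.87% of the members, against 9.92% of all genes tested, of which 4.79% rose and 5.13% fell. The median log2 fold change of the members was -0.06, against 0.01 over all genes. The nuclear and the mitochondrial members lay on opposite sides of 0. Of 94 nuclear members 32 had positive values (median -0.10), whereas 12 of 13 mitochondrial members did (median 0.25). Among the nuclear complexes the lowest median was in complex IV at -0.27, with -0.12 in complexes III and V, -0.06 in complex II and -0.02 over the complex I subunits. These medians have no test, and that of the nuclear members went to 0.03 without control library 2, in which 93 of 94 nuclear members lay above the control mean, to -0.02 without knockout 1 and to -0.21 without control 1. Marker levels differed between the same libraries: 7 of 12 podocyte markers rose (sums of 882 to 1437 CPM in controls and 2001 to 2633 CPM in knockouts), and 3 of 8 parietal and simple epithelial markers fell (2488 to 5282 against 329 to 2171 CPM). Of 4 tested loop, distal tubule and collecting duct markers 3 fell (299.8 to 691 against 9.05 to 14.7 CPM), and the part of these cells in the members' values was not tested.

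**Figure D1:**
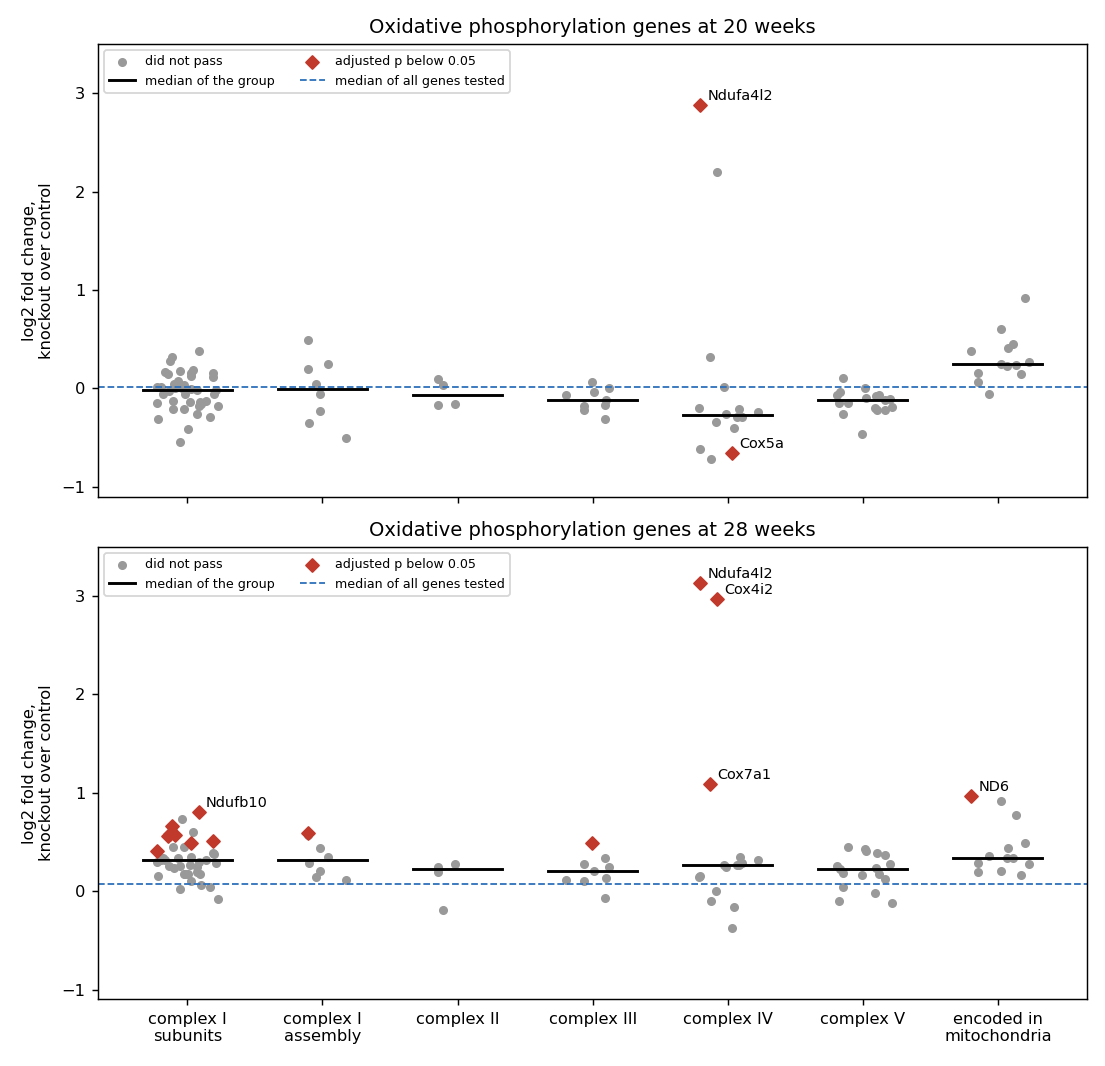
Log2 fold change, knockout over control, for every tested oxidative phosphorylation gene at 20 weeks (top) and 28 weeks (bottom); each point is 1 gene, the groups on the horizontal axis are the complexes, black bars are group medians, the dashed line is the median of all genes tested, and red diamonds passed an adjusted p of 0.05. At 20 weeks the group medians lie between -0.27 and 0.25, and at 28 weeks all 7 lie between 0.20 and 0.34, above the all-gene median of 0.07.

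The largest difference of any member was in Ndufa4l2, a paralog of Ndufa4 known as a target of the hypoxia-inducible factor HIF-1. At 20 weeks control libraries 1 to 3 held 1.14, 1.93 and 1.87 CPM and knockout libraries 1 to 3 held 9.29, 15.7 and 11.4 CPM. All knockout libraries were several times above all controls. The log2 fold change was 2.88 (SE 0.33, adjusted p = 0.00349; each group had n = 3 libraries). In 28-week mice controls held 1.56, 1.27 and 1.73 CPM, and knockouts 5.96, 18.2 and 15.9 CPM. The groups again did not overlap, with knockout 1 the lowest of the knockouts, and the log2 fold change was 3.13 (SE 0.45, adjusted p = 0.00702). The call at both ages was kept without each library in turn, with log2 fold changes from 2.64 to 3.04 at 20 weeks and from 2.84 to 3.47 at 28 weeks.

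Ndufa4 itself, the abundant member of the pair, did not move with its paralog. At 20 weeks it was at 188, 247 and 195 CPM in controls, against 122, 146 and 140.4 CPM in knockouts. Every knockout was below every control, but the log2 fold change of -0.62 (SE 0.17) missed the threshold (adjusted p = 0.0592), and it passed with DESeq2 (-0.62, adjusted p = 0.02245, and 0.02245 to 0.2485 over 14 alternatives). At 28 weeks the values overlapped, at 142, 221 and 232 CPM in controls, against 292, 204 and 166 CPM in knockouts (log2 0.15, SE 0.27, adjusted p = 0.748). Per length, Ndufa4l2 made up 0.337% ± 0.0759 (SD, n = 3) of the summed FPKM of the pair in 20-week controls and 3.66% ± 0.663 in 20-week knockouts. At 28 weeks the share was 0.346% ± 0.115 and 2.85% ± 1.72, with 0.874% in knockout 1 against 3.72% and 3.97% in knockouts 2 and 3. Ndufa4 thus remained the main transcript of the pair in every library.

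The coding sequences show how far reads of the 2 paralogs can be told apart. They are printed from GENCODE M21 (GRCm38), with capitals at bases that differ from the partner or have none. Ndufa4 (chr6:11900292-11907497, minus strand) has 249 coding bases and Ndufa4l2 (chr10:127514967-127517154, plus strand) has 264. Over 245 aligned bases 168 were identical (68.6%), and the capitals lie along most of the length, with a closely matching run in the second part.
Ndufa4: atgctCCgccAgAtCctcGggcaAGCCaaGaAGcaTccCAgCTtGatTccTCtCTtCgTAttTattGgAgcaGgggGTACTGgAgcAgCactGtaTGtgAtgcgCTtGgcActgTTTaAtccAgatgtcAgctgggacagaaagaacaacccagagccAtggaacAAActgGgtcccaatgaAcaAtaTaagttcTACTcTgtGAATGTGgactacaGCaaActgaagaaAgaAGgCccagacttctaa
Ndufa4l2: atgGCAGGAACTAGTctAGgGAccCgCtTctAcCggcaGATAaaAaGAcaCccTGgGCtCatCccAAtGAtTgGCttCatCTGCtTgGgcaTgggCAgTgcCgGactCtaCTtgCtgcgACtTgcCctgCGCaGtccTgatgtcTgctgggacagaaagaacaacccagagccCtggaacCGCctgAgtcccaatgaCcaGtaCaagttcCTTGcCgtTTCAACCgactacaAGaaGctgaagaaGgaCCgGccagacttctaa

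Cox4i2, the hypoxia-responsive isoform of cytochrome c oxidase subunit 4 known from lung, was low in controls and higher in knockouts. At 20 weeks it was at 0.182, 1.075 and 0.369 CPM in control libraries, and 1.80, 2.89 and 2.76 CPM in knockout libraries. The groups did not overlap, but the test did not pass (log2 2.19, SE 0.62, adjusted p = 0.0633), and it passed without control library 2 (3.18, adjusted p = 0.0266, and 0.003713 to 0.1566 over 14 alternatives). Later, 28-week controls held 0.307, 0.342 and 0.477 CPM, and knockouts 1.69, 3.63 and 3.57 CPM. The log2 fold change was 2.97 (SE 0.42, adjusted p = 0.00678), and the call was kept without each library in turn. Its broad counterpart Cox4i1 had overlapping groups at both ages, with log2 fold changes of -0.22 and 0.26 and adjusted p of 0.564 and 0.529. Cox4i2 made up 0.0912% ± 0.0665 of the pair in 20-week controls and 0.523% ± 0.111 in 20-week knockouts, and 0.0699% ± 0.0113 and 0.503% ± 0.276 at 28 weeks.

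The other tissue-restricted isoforms of complex IV differed in their pattern. Cox7a1, the heart and skeletal muscle isoform of subunit 7a, was at 0.973, 0.829 and 1.33 CPM in 28-week controls and 2.26, 2.08 and 2.34 CPM in 28-week knockouts. Every knockout was above every control, and the test passed (log2 1.09, SE 0.28, adjusted p = 0.0394), but the call was lost without any 1 of the 6 libraries (adjusted p from 0.0700 to 0.150). At 20 weeks the groups overlapped (log2 0.32, SE 0.41, adjusted p = 0.705). Cox6b2, an isoform known from testis, was at 6.74, 9.51 and 11.1 CPM in 20-week controls and at 5.15, 6.53 and 4.95 CPM in knockouts, below every control without passing the test (log2 -0.72, SE 0.27, adjusted p = 0.144). At 28 weeks it overlapped (log2 -0.10, adjusted p = 0.883). Cox6a2, the muscle isoform of subunit 6a, had mean levels from 0.181 to 0.291 FPKM over the 4 groups and was not tested. Cox7b2 was at 0 in 8 of 12 libraries, with 1 count in each of the others; at 20 weeks a control count of 0 allows a level of up to 0.0841 CPM.

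Ndufa4l2 and Cox4i2 RNA are known from pericytes and vascular smooth muscle, and the smooth muscle list was higher in knockouts at both ages, while the pericyte and mesangial list was so at 20 weeks. At 20 weeks 6 of 8 smooth muscle markers rose, and their summed level was 4685 to 5036 CPM in controls and 9952 to 14110 CPM in knockouts. At 28 weeks 5 of 8 rose, with sums of 3333 to 3417 and 7146 to 15790 CPM, and knockout 1 was the lowest of the knockouts, as it was for both genes. Of 7 tested pericyte and mesangial markers 5 rose at 20 weeks (sums of up to 175.7 CPM in controls and of 484 to 673 CPM in knockouts); of 9 tested at 28 weeks Rgs5 rose and Pdgfra fell, 5 had negative values and the median log2 fold change was -0.04 (119.5 to 270.3 against 169 to 523 CPM). In this list the pericyte markers Abcc9, Kcnj8 and Higd1b had means under 1 CPM in both ages, whereas Rgs5 went from 18.3 to 220.3 CPM at 20 weeks and from 21.8 to 179 CPM at 28 weeks, a marker singled out after its values were seen. The part of these cells in the rise of the 2 isoforms was not tested.

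**Figure D2:**
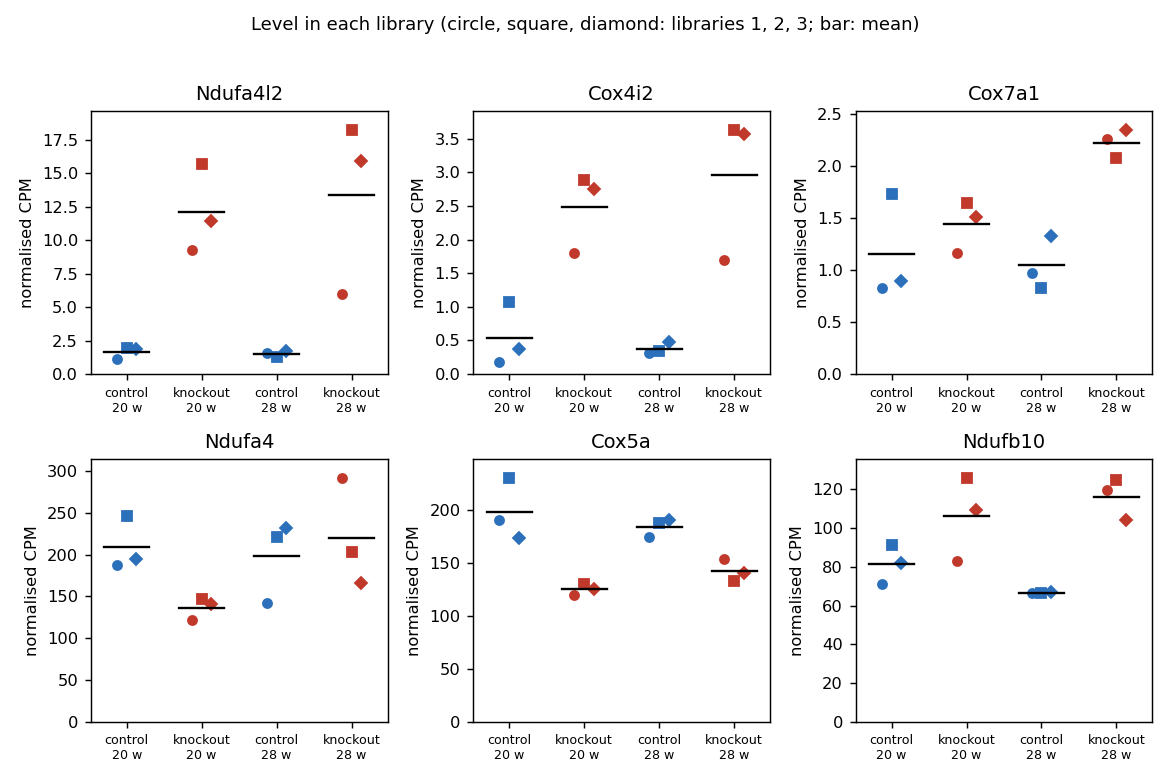
Normalised CPM of 6 oxidative phosphorylation genes in each of the 12 libraries, on linear axes that start at 0; blue points are controls, red points knockouts, the 3 symbols are libraries 1 to 3 and black bars are group means. Ndufa4l2 and Cox4i2 lie above every control in every knockout at both ages, Ndufa4 does not separate at 28 weeks, and Cox5a lies below every control in every knockout.

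Cox5a, a nuclear subunit on the matrix side of complex IV, was the only member called lower. At 20 weeks it was at 191, 230.1 and 173 CPM in controls, against 120.1, 130.3 and 125 CPM in knockouts. The groups did not overlap and the test passed (log2 -0.66, SE 0.16, adjusted p = 0.0410), but the call was lost without any 1 of the 6 libraries (adjusted p from 0.0573 to 0.189). At 28 weeks it was at 174, 188 and 190.4 CPM in controls, against 154, 133 and 140.4 CPM in knockouts. These groups did not overlap either, and the test did not pass (log2 -0.37, SE 0.11, adjusted p = 0.0580), while DESeq2 gave an adjusted p of 0.0499 and 15 alternatives ranged from 0.0212 to 0.2424. In the GENCODE M21 annotation 29.2% of the 50-base stretches of Cox5a are also in a non-coding RNA that starts at its promoter, Gm26631, and no source used here gives the counting rule for shared reads. Cox8a, the smallest subunit of the enzyme, was also below every control at both ages without passing (log2 -0.41, adjusted p = 0.123, and -0.16, adjusted p = 0.351).

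In the other complexes no nuclear member was called at 20 weeks. Of 40 complex I subunits 18 had positive values, and the highest value was 0.38 in Ndufb10. The lowest, -0.55, was that of the processed pseudogene Ndufs6b, with means of 1.9 CPM in controls and 1.3 CPM in knockouts. Complex III values ran from -0.31 in Uqcrfs1, the Rieske iron-sulfur subunit, to 0.06 in Uqcr11, and complex V values from -0.47 in Atp5mpl to 0.10 in Atp5a1, the alpha subunit. Knockout libraries were below all controls in 10 of 107 members and above all controls in 3, or 9.35% and 2.80%. Over all genes tested these shares were 16.7% and 15.5%.

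At 28 weeks the nuclear members stood on the other side of 0. Of 107 tested members 14 rose and none fell (edgeR quasi-likelihood test), and 93 did not pass. The risen members were 13.1% of those tested, against 9.33% of all genes that rose, while 11.9% of all genes fell and 21.2% were called in either direction. Positive values were found in 98 of 107 members, against 55.0% of all genes tested. The median log2 fold change was 0.27, against 0.07 over all genes. All knockouts were above all controls in 38 members (35.5%, against 19.3% of all genes) and below all controls in 4 (3.74%, against 22.8%). The 14 risen members had log2 fold changes from 0.00 to 2.88 at 20 weeks (median 0.30), where only Ndufa4l2 was called.

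The size of this difference and the number of calls depended on single libraries. The nuclear median of 0.27 was 0.13 without knockout 1 and 0.16 without control 1. Over the 94 tested nuclear members the median difference from the control mean was -0.14, 0.08 and 0.07 in control libraries 1 to 3 and 0.49, 0.30 and 0.02 in knockout libraries 1 to 3. Knockout 3 therefore stood within the controls, and knockout 1 was highest. Between 3 and 9 members were called when 1 library was left out: 8 without control 1, 4 without control 2, 3 without control 3, 8 without knockout 1, 4 without knockout 2 and 9 without knockout 3. With controls 2 and 3 summed into 1 library, 3 members were called. The 3 members called without each library in turn were Ndufa4l2, Cox4i2 and Ndufb10. None of the 3 passed when edgeR took the library number as a replicate block (adjusted p = 0.0568, 0.0503 and 0.0657).

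**Figure D3:**
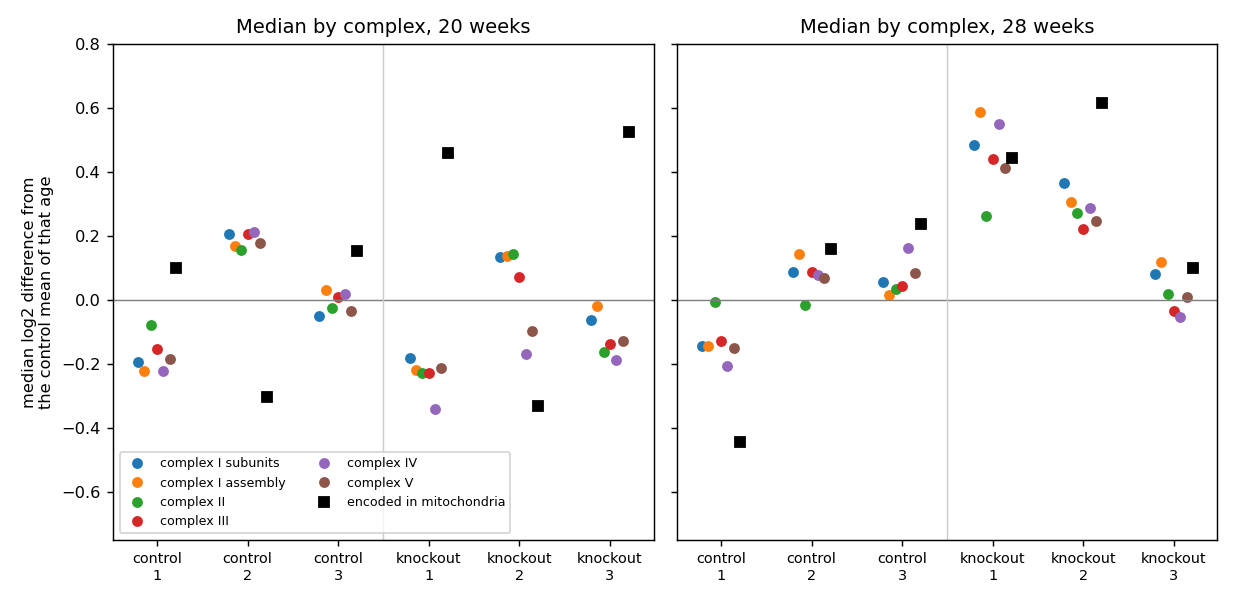
Median log2 difference from the control mean of the same age, for each library and complex; circles are nuclear groups of genes and black squares the genes encoded in mitochondria. At 28 weeks the nuclear medians other than that of complex II are highest in knockout 1, and they lie near 0 in knockout 3, and at 20 weeks the mitochondrial genes lie apart from the nuclear ones, at -0.31 in control 2 and -0.33 in knockout 2.

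Of the 11 risen members that were not restricted isoforms, 8 were complex I subunits. Of 33 accessory subunits, which surround the catalytic core and are needed for its assembly and stability, 8 rose (24.2%, against 9.33% of all genes) and 25 did not pass, and all 33 had positive values (median 0.33). Of the 7 nuclear core subunits, which hold the redox centres, none was called and 6 were positive (median 0.24). The accessory class counts the processed pseudogenes Ndufs6b and Ndufb4c. Whether the 2 classes differ was not tested. Ndufb10, an accessory subunit of the membrane arm, was at 66.7, 66.3 and 67.2 CPM in controls, against 119.7, 124.9 and 104.0 CPM in knockouts. Every knockout was well above every control (log2 0.80, SE 0.11, adjusted p = 0.00628). At 20 weeks it had overlapped, at 71.1, 91.1 and 82.2 CPM in controls, against 82.9, 126 and 109 CPM in knockouts (log2 0.38, adjusted p = 0.287).

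The next accessory subunits by p-value had smaller rises. Ndufc1, a small membrane-arm subunit, was at 47.0, 48.4 and 52.0 CPM in 28-week controls and 76.5, 69.5 and 73.4 CPM in knockouts (log2 0.57, SE 0.10, adjusted p = 0.0126). Ndufb4, also of the membrane arm, was at 56.7, 61.6 and 63.2 CPM in controls, against 110.1, 94.8 and 83.3 CPM in knockouts (log2 0.67, SE 0.13, adjusted p = 0.0173). In both genes the groups were apart. Ndufa2, a subunit of the NADH-oxidising arm, went from 70.7 ± 0.867 to 100.8 ± 7.11 CPM (log2 0.51, adjusted p = 0.0162). Ndufa1, which is encoded on the X chromosome, went from 55.2 ± 2.74 to 77.3 ± 3.20 CPM (log2 0.49, adjusted p = 0.0193). Ndufv3, an accessory flavoprotein subunit, went from 44.3 ± 3.10 to 66.3 ± 7.53 CPM (log2 0.58, adjusted p = 0.0234). Each of these 5 calls was lost without at least 2 of the 6 libraries, with adjusted p up to 0.0688 for Ndufc1, 0.0723 for Ndufb4, 0.0813 for Ndufa2, 0.0992 for Ndufa1 and 0.105 for Ndufv3. The remaining 2 calls, Ndufa5 (log2 0.56) and Ndufa8 (0.41), are named outside the rule for named genes and after their values were seen, and both were lost without any 1 library.

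Core subunits gave a different picture in their lowest member. Ndufs3, which lies in the arm that reduces ubiquinone, had the lowest value of complex I, at 67.7, 66.4 and 64.7 CPM in 28-week controls and 62.5, 63.9 and 61.9 CPM in knockouts (log2 -0.08, SE 0.09, adjusted p = 0.611). All 8 assembly factors had positive values, and 1 rose (12.5%, against 9.33% of all genes that rose). This was Ndufaf3 (15.6 ± 1.89 CPM in controls and 23.6 ± 2.99 CPM in knockouts, log2 0.59, SE 0.16, adjusted p = 0.0438). Its call was lost without 4 of the 6 libraries, with adjusted p up to 0.162. Ndufaf6 was lowest in this group, with overlapping groups (8.37 ± 1.81 and 9.04 ± 3.435 CPM, log2 0.11, adjusted p = 0.848).

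Complexes II, III and V held 1 call between them at 28 weeks. In complex II the flavoprotein subunit Sdha was lower in every knockout, at 255, 228 and 226 CPM in controls, against 206, 217 and 199 CPM in knockouts, without passing (log2 -0.19, SE 0.11, adjusted p = 0.284). The membrane anchors Sdhc (log2 0.25, adjusted p = 0.153) and Sdhd (0.20, adjusted p = 0.244) were higher in every knockout, and the iron-sulfur subunit Sdhb overlapped (0.27, adjusted p = 0.399). The subunits of this small complex, which is also an enzyme of the citric acid cycle, therefore did not share a direction. In complex III 1 of 9 rose (11.1%, against 9.33% of all genes that rose). This was Uqcr11, the smallest subunit of the complex, at 76.5, 87.2 and 76.7 CPM in controls, against 125.1, 116 and 95.7 CPM in knockouts (log2 0.49, SE 0.14, adjusted p = 0.0479). Its groups were apart, and the call was lost without 5 of the 6 libraries (adjusted p up to 0.176).

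None of the 17 complex V genes passed at 28 weeks, and 14 had positive values. Atp5j2, which encodes subunit f of the membrane part, had the highest value, at 122, 156 and 148 CPM in controls, against 221, 198 and 163 CPM in knockouts. The groups were just apart, and the test did not pass (log2 0.45, SE 0.16, adjusted p = 0.0970). The lowest value was that of Atp5g2, 1 of the genes for the c ring, at -0.12 (adjusted p = 0.530). In complex IV the 12 members without a restricted isoform held no call, with 10 of 12 values positive, from -0.37 in Cox5a to 0.34 in Cox7a2, and a median of 0.25. The calls of complex IV, 3 of 16 tested (18.8%, against 9.33% of all genes that rose), were Ndufa4l2, Cox4i2 and Cox7a1, whose mean shares of their pairs in knockouts were 2.85%, 0.503% and 2.15%.

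Marker levels of several cell types also differed between genotypes or libraries at 28 weeks. Podocyte markers summed to 1280 to 2052 CPM in controls and to 772.6, 2290 and 1423 CPM in knockouts 1 to 3, with 2 of 12 fallen. Leukocyte markers summed to 72.6 to 93.2 CPM in controls and to 620, 781 and 828 CPM in the 3 knockouts in turn, with 3 of 8 risen; Lyz2 went from 49.4 to 651 CPM. Parietal and simple epithelial markers summed to 3525 to 6333 CPM in controls and to 7047, 191 and 710 CPM in knockouts 1 to 3, with 1 of 8 fallen. Loop, distal tubule and collecting duct markers summed to 204 to 605 CPM in controls and to 395, 5.14 and 28.8 CPM in knockouts 1 to 3. The nuclear oxidative phosphorylation medians of the same knockouts were 0.49, 0.30 and 0.02. The part of any of these cell types in the members' values was not tested.

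The 13 genes of mitochondrial DNA, which is transcribed as long precursors and cut into messages, tended upward at both ages with 1 call. They took 1.71% ± 0.353 of all counts in 20-week controls and 1.88% ± 0.549 in 20-week knockouts. The single libraries were at 1.83%, 1.32% and 1.99% in controls, against 2.10%, 1.25% and 2.28% in knockouts, so library 2 was lowest in each group and the groups overlapped. The 28-week shares were 1.49%, 2.16% and 2.22% in controls, against 2.26%, 2.61% and 1.93% in knockouts, again overlapping (1.96% ± 0.403 and 2.27% ± 0.342). Exact 95% binomial intervals on these shares were at most 0.006 percentage points wide to either side and cover counting error only. The nuclear members took 1.36% ± 0.147 and 1.19% ± 0.0980 of counts at 20 weeks and 1.30% ± 0.148 and 1.43% ± 0.191 at 28 weeks, in controls and knockouts. The ratio of mitochondrial to nuclear counts varied more between libraries than between genotypes, from 0.868 in control 2 to 1.93 in knockout 1 at 20 weeks.

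All 13 mitochondrial genes had positive log2 fold changes at 28 weeks (0.16 to 0.96, median 0.34). Only ND6 rose, which is 7.69% of them, against 9.33% of all genes that rose. ND6, the only message transcribed from the light strand of mitochondrial DNA and a membrane subunit of complex I, was at 9.60, 19.8 and 15.8 CPM in controls, against 30.0, 28.2 and 29.9 CPM in knockouts. The groups did not overlap (log2 0.96, SE 0.26, adjusted p = 0.0445). The call was lost with DESeq2-type size factors (adjusted p = 0.0555) and without 4 of the 6 libraries, and 14 alternatives ranged from 0.01134 to 0.1335. No source used here gives the strand setting of the counting, so reads from the opposite strand cannot be told apart from those of ND6. At 20 weeks ND6 overlapped (log2 0.37, adjusted p = 0.534).

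The abundant mitochondrial messages overlapped between genotypes at both ages, except ND4 at 28 weeks. COX1 made up 40.3% to 47.9% of the mitochondrial counts of a library, with log2 fold changes of 0.23 (adjusted p = 0.651) and 0.34 (0.314). CYTB, the mitochondrial subunit of complex III, had 0.15 (adjusted p = 0.836) and 0.29 (0.471). The complex I subunits ND1, ND2, ND4 and ND5 had values from 0.07 to 0.45 at 20 weeks and from 0.20 to 0.34 at 28 weeks, with adjusted p of at least 0.225. All 28-week knockouts were above all controls in ND4 (log2 0.27, adjusted p = 0.240), and also in COX3 (21.3, 51.9 and 53.2 against 93.8, 67.2 and 78.1 CPM, log2 0.92, adjusted p = 0.118) and ND3 (4.86, 7.59 and 10.8 against 15.8, 13.1 and 10.9 CPM, log2 0.77, adjusted p = 0.139).

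Levels of 5 mitochondrial genes were far below the rest although all but ND6 are cut from 1 precursor strand. COX2, COX3, ATP6, ND3 and ND4L had mean levels of 54.1, 33.4, 23.9, 21.1 and 7.65 FPKM in 20-week controls, against 887 to 4773 FPKM in COX1, CYTB, ND1, ND2, ND4 and ND5. In the GENCODE M21 transcripts these 5 share at least 98.0% of their 50-base stretches with other genes, of which the leading ones are pseudogenes on chromosome 1. ND4 shares 62.2% and COX1 51.1%, and CYTB, ND1, ND2 and ND5 share at most 8.2%. ATP8, at 1.67 FPKM, and ND6, at 23.99 FPKM, were also low and share none. No source used here says how reads that match both places were counted, so the counts of the shared genes are uncertain. For this check 103 of the 109 members could be matched to protein-coding transcripts. Among the matched nuclear members only Atp5l shared more than 50% of its stretches, at 84.8%. The processed pseudogenes Ndufs6b and Ndufb4c were not matched and have no value.

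The start of COX3 (chrM:8607-9390, plus strand) is an example of a shared stretch, and its part in the low levels was not tested. Its first 80 bases, printed from GENCODE M21, have no difference from those of the pseudogene Gm28437 (chr1:24613189-24613971, minus strand), so no base is in capitals.
COX3: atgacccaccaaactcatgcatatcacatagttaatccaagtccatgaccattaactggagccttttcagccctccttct

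**Figure D4:**
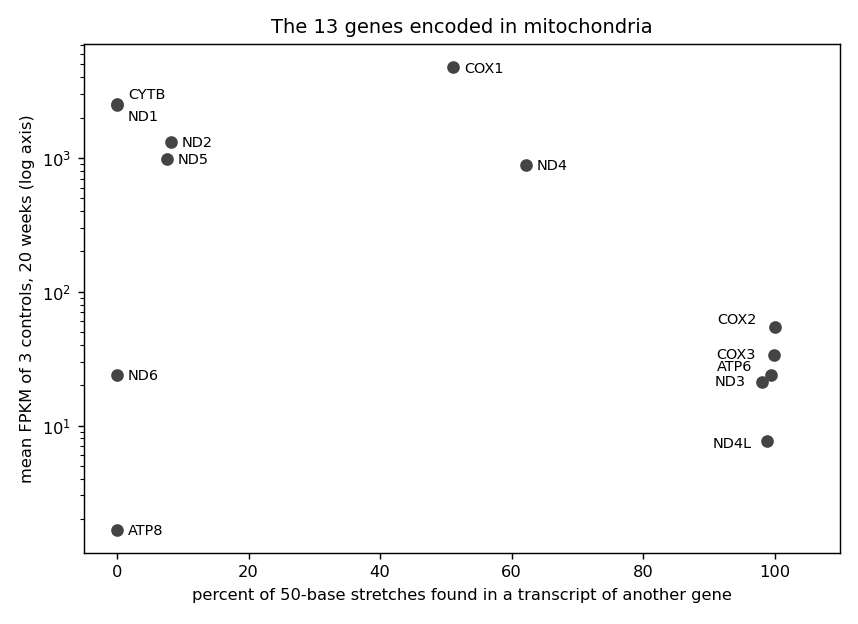
Mean FPKM of the 3 controls at 20 weeks (log axis) for each of the 13 genes encoded in mitochondria, against the percentage of their 50-base stretches that also occur in a transcript of another gene. The 5 genes with 98.0% or more lie between 7.65 and 54.1 FPKM, and the genes with at most 62.2% lie at 887 FPKM or above, except ATP8 and ND6.

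Whether the genotype difference itself differed by age was tested in 1 model of all 12 libraries. No member and none of 15662 genes passed (0% of members and 0% of genes; edgeR quasi-likelihood test). At an unadjusted p below 0.05 there were 16 members, all with a more positive effect at 28 weeks, or 15.0% of 107 against 9.12% of all genes. DESeq2 called 25 genes and no member. The member median was 0.35, against 0.05 over all genes, and all nuclear groups had positive medians, from 0.26 in complex III to 0.53 in complex IV. Without single libraries this number ran from 1 (28-week knockout 1 or 2 left out) to 31 (28-week knockout 3 left out); it was 2 without 20-week control 2 or 28-week control 1 and 5 without 20-week knockout 1. Without knockout library 1 of both ages, a choice made after the data had been seen, the median was 0.16 and 0 members had an unadjusted p below 0.05. The smallest p-values were those of Ndufc1 (difference of log2 fold changes 0.58, SE 0.19), Uqcrh (0.51, SE 0.19) and Atp5mpl (0.64, SE 0.24), each with an adjusted p of 0.539. Uqcrh, the hinge protein of complex III, was at 152, 172 and 183 CPM in controls, against 143, 160.3 and 149 CPM in knockouts at 20 weeks, and at 132, 152 and 167 against 194, 211 and 163 CPM at 28 weeks, overlapping at both ages.

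Within a genotype, age gave no call either. Between controls of 28 and 20 weeks the member median was -0.04, with 0 of 107 members at an unadjusted p below 0.05 (2.98% of all genes), 0 called genes with edgeR and 1 with DESeq2. Between knockouts the median was 0.30, against 0.04 over all genes; 34 members, all higher at 28 weeks, had an unadjusted p below 0.05, where 11.2% of all genes did. None of them passed with edgeR, which called 0 genes, or with DESeq2, which called 36 genes. The 34 became 4 without 28-week knockout 1, 12 without 28-week knockout 2 and 15 without 20-week knockout 1, and 51 without 28-week knockout 3. Age and any differing treatment of the 2 deposited tables cannot be told apart.

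Genes that build and feed the chain were counted from further lists, against 21.2% of all genes called in either direction at 28 weeks and 9.92% at 20 weeks. At 28 weeks 3 rose and 1 fell of 10 tested complex I assembly factors without an Ndufaf symbol: Tmem126b (log2 0.88, adjusted p = 0.00726), Foxred1 (0.75, adjusted p = 0.0101) and Tmem70 (0.61) rose, and Dmac2 (-0.75) fell. Both Sdhaf1 (0.44) and Sdhaf2 (0.47), which mature succinate dehydrogenase, rose among 4 complex II factors. Uqcc2 (0.67) and Uqcc3 (0.65) rose among 6 complex III factors. The complex IV factors were near that share, with 23.8% called. Of 21 tested 4 rose, namely Cox20 (0.85), Higd1a (0.54), Cox14 (0.67) and Cox19 (0.45), and Lrpprc, which stabilises mitochondrial messages, fell (77.9 ± 8.09 to 44.7 ± 5.08 CPM, log2 -0.80, adjusted p = 0.0106). None of 4 complex V factors, 16 citric acid cycle genes and 12 genes of mitochondrial DNA upkeep was called at 28 weeks, and none in any of these lists or the assembly lists at 20 weeks. Where a list had more than 2 calls, those beyond the 2 smallest p-values are named after their values were seen, here and in the next paragraph.

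Of the electron carriers 5.56% were called at 20 weeks and 11.1% at 28 weeks, both below the share of all genes, and of the regulators of mitochondrial biogenesis 25% and 41.7%. Coq8a, a kinase-like protein of ubiquinone synthesis, rose at 20 weeks (2.32 ± 0.314 CPM in controls and 6.89 ± 1.33 CPM in knockouts, log2 1.57, SE 0.28, adjusted p = 0.0128), 1 of 18 carrier and entry genes. At 28 weeks Etfb, a subunit of the electron transfer flavoprotein of fatty acid oxidation, rose (log2 0.64) and Gpd2, the mitochondrial glycerol phosphate dehydrogenase, fell (-0.60). Among 12 regulators of mitochondrial biogenesis, Ppargc1a, the coactivator PGC-1 alpha, fell at both ages, from 2.12 ± 0.551 to 0.486 ± 0.247 CPM at 20 weeks (log2 -2.12, SE 0.48, adjusted p = 0.0323) and from 2.78 ± 0.300 to 0.576 ± 0.400 CPM at 28 weeks (-2.26, SE 0.60, adjusted p = 0.0427). Its partner receptor Esrrg fell (log2 -2.16 and -4.20), as did Myc (-1.24 and -1.63), while Sirt3, a mitochondrial deacylase, and Hif1a rose at 28 weeks (0.87 and 0.40). Ppargc1a and Esrrg are known from tubule epithelium. Sums of loop, distal tubule and collecting duct markers are given above for the same libraries. Of these markers 8 of 10 listed at 20 weeks and 6 of 9 at 28 weeks had means under 1 CPM. Proximal tubule markers summed to 11.17 to 17.42 CPM in 20-week controls and 3.235 to 9.737 CPM in 20-week knockouts. At 28 weeks the proximal sums were 8.652 to 13.77 and 3.561 to 8.498 CPM. Of the proximal markers 4 of 7 listed at 20 weeks and 3 of 6 at 28 weeks had means under 1 CPM. The part of such cells was not tested.

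Promoters of the members were searched for 3 motifs linked with nuclear mitochondrial genes, on both strands and in a window from 250 bases before to 50 bases after the RefSeq start (GRCm38.p6), with 77 of 109 members matched to 82 promoters. The NRF1 core TGCGCA, which reads the same on both strands, was in 24.4% of member promoters and 7.80% of all 32851. The ETS core CCGGAAG was in 23.2% and 8.90%, and the YY1 core AAGATGG in 14.6% and 6.30%. The ETS core ends and the YY1 core starts with AAG, so these 2 can overlap. Among 11 promoters of 10 members that rose at 28 weeks, 5 held the NRF1 core and 1 each the other 2 motifs. Both promoters of Ndufa5 are among these 5, and their windows overlap and hold the same site. The risen nuclear members Ndufa4l2, Cox4i2 and Ndufa2 had no matched promoter. A match describes letters only. The 250 bases before the start of Ndufb4 (chr16:37654369-37654618, minus strand), with the NRF1 core in capitals, and of Cox7a1 (chr7:30183921-30184170, plus strand), with none, are shown as a risen subunit of each kind.
Ndufb4: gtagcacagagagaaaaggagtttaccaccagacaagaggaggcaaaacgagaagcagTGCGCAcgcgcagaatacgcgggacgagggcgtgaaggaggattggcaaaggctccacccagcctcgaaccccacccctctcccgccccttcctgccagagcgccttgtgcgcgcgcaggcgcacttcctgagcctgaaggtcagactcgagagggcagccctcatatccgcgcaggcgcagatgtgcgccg
Cox7a1: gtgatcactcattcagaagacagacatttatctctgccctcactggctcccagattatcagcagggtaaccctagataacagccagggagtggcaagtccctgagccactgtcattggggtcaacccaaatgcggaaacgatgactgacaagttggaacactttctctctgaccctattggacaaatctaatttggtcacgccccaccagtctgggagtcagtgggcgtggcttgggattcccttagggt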

How the data were processed

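For each age the authors deposited raw counts by gene symbol and, beside them, FPKM values, per the file headers. The genome build was GRCm38 (mm10), per the submitters' processing notes; aligner, counting program and strand setting: not given in the sources used here. Each age was fitted alone on counts with edgeR 4.0.16 in R 4.3.3 (TMM, filterByExpr, quasi-likelihood F test, no block), with calls at an adjusted p below 0.05 (Benjamini-Hochberg, all genes tested). SE was taken as the absolute log2 fold change over the root of F. CPM uses TMM-scaled library sizes. FPKM, as deposited, served only to compare genes and in a limma 3.58.1 alternative with a pseudocount of 0.5. DESeq2 1.42.0 was another alternative. The members and lists were chosen with earlier results of these data known. Named are all restricted isoforms with their counterparts, all mitochondrial genes, complex II, up to 6 called members per complex and age, and the extremes of each. In simulated data 12% (20 weeks) and 24% (28 weeks) of genes changed by a log2 fold of 1 were recovered, and 85% and 73% at a log2 fold of 2. For the change between ages these were 6% and 52%. At each age fewer genes were changed in the simulation than were called in the data, and the members were not singled out.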

Additional observations from a re-analysis of the deposited data

How the results depend on the processing

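The counts of called members moved by more than 1.5 times at both ages. At 20 weeks, where 2 members were called, there were 4 with DESeq2, 4 in the model of all 12 libraries, 7 with limma on FPKM, and 1 to 2 without each library in turn. At 28 weeks, where 14 were called, there were 9 without a filter, 3 with control libraries 2 and 3 summed, and 3 to 9 without each library in turn.

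With the library number as a replicate block no member was called at 28 weeks (0 in place of 14, with 332 genes called in all) and 2 were at 20 weeks. Correlations between the deviations of same-numbered libraries ran from -0.17 to 0.32 at 20 weeks, highest in library 2, and from -0.57 to -0.10 at 28 weeks. With 3 libraries per group these values cannot show whether same-numbered libraries share more than a number.

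Among named members, the sign turned only where the member was not called at that age. At 20 weeks, without each library in turn, these ran from -0.11 to 0.14 in Cox6a1, -0.03 to 0.12 in Sdha, -0.05 to 0.23 in Sdhc, -0.05 to 0.20 in Atp5a1, -0.07 to 0.19 in Uqcr11, -0.11 to 0.15 in Ndufc1, -0.07 to 0.42 in CYTB, -0.11 to 0.26 in ND1, -0.16 to 0.56 in ND3, -0.17 to 0.44 in ND4L and -0.33 to 0.38 in COX2. At 28 weeks they ran from -0.33 to 0.34 in Cox6b2, -0.13 to 0.27 in Ndufa4, -0.27 to 0.24 in Ndufaf6 and -0.18 to 0.32 in ND4L. The filter of 1 CPM gave -0.05 for Cox6a1, -0.03 for Sdha, 0 for Uqcr11 and -0.06 for Ndufc1 at 20 weeks. Leaving out the mitochondrial rows gave -0.03, -0.01 and -0.04 for Cox6a1, Sdha and Ndufc1, and the model of 12 libraries -0.03, 0 and -0.03. FPKM with limma gave -0.08, -0.06 and -0.08 for these 3, -0.02 for ND1, 0 for Sdhc and -0.03 for Uqcr11, and 0 for Ndufaf6 at 28 weeks; Ndufc1 was at 0 with DESeq2-type size factors. The cause was not tested. In the simulated data most changes of a log2 fold of 1 were not recovered. Those shares cover genes of many levels and fewer changed genes than were called, so they do not describe the members. Some members were called at smaller changes, such as Cox5a at -0.66 at 20 weeks. With 3 libraries, other changes of this size could have been missed.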
